A study of Mus musculus with 24 samples.

Results

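The respiratory chain was described here through the genes of complexes I to V, taken from the count table by symbol: the Nduf, Sdh, Uqcr, Cox4 to Cox8 and Atp5 families of the nucleus and the mt-Nd, mt-Co, mt-Cytb and mt-Atp genes of the mitochondrial genome. The symbol rule took 98 of 46477 listed genes, 85 nuclear and 13 mitochondrial, and left out 3 names that end in -ps and digits. No expression value entered the choice. RNA was measured by poly-A sequencing in liver cells selected with magnetic beads for CD11b and Ly6G. The labels name them granulocytic myeloid-derived suppressor cells (G-MDSCs). All mice were WT males of strain BALB/C, 8 weeks old. Surgeons resected 70% of the liver (hepatectomy) or opened the midline without resection (sham), and cells were collected on postoperative day (POD) 1, 2, 3 or 4. The 8 groups held 3 libraries each, 24 in all, with 10390216 to 16949088 counts per library. The labels do not say whether the 3 libraries of a group came from separate animals, so p-values measure the spread between libraries.

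The respiratory chain passes electrons from NADH and succinate through complexes I and II to ubiquinone, then through complex III and cytochrome c to complex IV, which reduces oxygen. The proton gradient built on the way drives ATP synthesis by complex V. Complex II is encoded wholly in the nucleus, and the other complexes join nuclear subunits with core subunits made from mitochondrial DNA. Mature neutrophils, the cells closest to G-MDSCs, are known for few mitochondria and for a reliance on glycolysis.

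The mitochondrial genes fell into those that could be counted and those that could not. mt-Co1, mt-Cytb, mt-Nd1, mt-Nd2, mt-Nd4, mt-Nd5 and mt-Nd6 were counted in every library, while mt-Co2, mt-Co3, mt-Atp8 and mt-Nd4l had 0 counts in all 24 libraries and mt-Atp6 and mt-Nd3 had 1 count in 1 library each. Apart from mt-Atp8, the uncounted genes have a near-complete copy in the nucleus: in the GENCODE M21 annotation of GRCm38, 97.99% to 100% of the 50-base windows of their transcripts also occur in another annotated gene. The copies are unprocessed pseudogenes on chromosome 1. The first 100 bases of mt-Atp6 and mt-Nd3 are shown with their copies, Gm10925 and Gm28438, from the GENCODE M21 transcripts, to show how little sequence a read has to tell them apart. Capitals mark the base that differs.
mt-Atp6: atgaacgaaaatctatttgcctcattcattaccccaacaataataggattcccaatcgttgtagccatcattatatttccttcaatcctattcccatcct
Gm10925: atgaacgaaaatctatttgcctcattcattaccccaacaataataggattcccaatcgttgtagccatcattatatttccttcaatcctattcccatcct
mt-Nd3: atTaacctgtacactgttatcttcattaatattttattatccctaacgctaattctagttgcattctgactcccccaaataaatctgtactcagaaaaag
Gm28438: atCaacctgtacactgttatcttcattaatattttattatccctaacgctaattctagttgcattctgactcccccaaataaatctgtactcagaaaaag
mt-Atp6 and Gm10925 were identical over all 678 aligned bases, and mt-Nd3 and Gm28438 differed at 1 of 345, by T3C counted from the first base of mt-Nd3. The copies collected few counts themselves, 0 or 1 per library for Gm10925 and 1 to 10 for Gm28438, and 0 for those of mt-Co2, mt-Co3 and mt-Nd4l. Gm13341, another gene that shares windows with mt-Co2, had 11 to 59 per library. Among the counted genes the shared windows reached 62.23% for mt-Nd4 and 51.14% for mt-Co1, 8.19% for mt-Nd2 and 7.61% for mt-Nd5, and none for mt-Nd1, mt-Cytb and mt-Nd6. Levels of mt-Nd4 and mt-Co1 are uncertain for that reason, and the part of the copies in the zeros was not tested. mt-Nd6 lies on the opposite strand from the other 6, and the strand setting of the counting is not given in the sources used here, so its reads cannot be told apart from antisense reads.

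Of the 85 nuclear genes, 77 passed the low-count filter. The 8 that did not were Atp5l2-ps, which is a processed pseudogene that the symbol rule keeps, and Cox4i2, Cox6a2, Cox6b2, Cox7a1, Cox7b2, Cox8b and Cox8c, which are the muscle, testis, lung or brown fat forms of complex IV subunits. Cox7b2 and Cox8c had no count in any library, and Cox6a2 had at most 14 counts. With the 7 counted mitochondrial genes, 84 genes were tested. In 46 nuclear genes some 50-base windows occur in another gene, and the share was over 50% in Atp5l (84.85%) and Atp5l2-ps (73.38%), whose values are uncertain.

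Levels between genes are compared in CPM (counts scaled to a common TMM-adjusted library total) per kilobase of annotated exon, averaged over the 24 libraries. The 7 mitochondrial mRNAs were the most abundant, from 2915 ± 567 CPM per kb (SD over libraries) for mt-Co1, the catalytic subunit of complex IV, to 590 ± 106 for mt-Nd5, a proton-pumping subunit of complex I. mt-Co1, mt-Cytb (2874 ± 627) and mt-Nd1 (2629 ± 556) did not differ beyond their spread. The highest nuclear gene was Cox6a1, the widely expressed form of complex IV subunit VIa, at 232 ± 60.4 CPM per kb, followed by Cox8a at 185 ± 47.7 and Cox6b1 at 136 ± 17.6. The catalytic beta subunit of ATP synthase, Atp5b, stood at 79.7 ± 11.1 CPM per kb and its alpha partner Atp5a1 at 70.1 ± 18.4. That pair depends on the length used, because the merged exons of Atp5b hold 4237 bases and the transcript used for the window search 1916. Per kilobase of that transcript, a measure added after the levels were seen, Atp5b stood at 176 ± 24.5 and Atp5a1 at 82.2 ± 21.5, apart beyond their spread, and Atp5b came above Cox6b1 at 156 ± 20.1, while Cox6a1 and Cox8a stayed above both.

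The sorted fractions differed in the RNA of other liver cells, and this moved with the respiratory chain. A score of 15 sinusoidal endothelium markers, their mean log2(CPM + 1), stood at 4.80 to 8.46 in 9 libraries and at 9.97 to 10.90 in the other 15. Hepatectomy POD1 was wholly in the endothelium-poor set of 9. Its other libraries came from sham POD1 (replicates 1 and 2), hepatectomy POD3 (replicate 1), sham POD4 (replicates 2 and 3) and hepatectomy POD4 (replicate 1). At POD1, the summed unscaled CPM of the 14 neutrophil markers ran from 115720.0 to 124973 after hepatectomy and from 9857 to 81149 in sham, and that of the 15 endothelial markers from 821 to 835 and from 1187 to 47781. Ly6g and Itgam, which encode the selected surface proteins, were detected in every library, at widely different levels. Unscaled CPM of Ly6g ran from 11.4 in sham POD2 replicate 3 to 800 in sham POD4 replicate 3. Itgam ran from 213 in sham POD2 replicate 3 to 3969 in hepatectomy POD1 replicate 1. The endothelial marker Stab2 stood at 4062 in sham POD2 replicate 3. In bulk RNA, fewer cells of a type and less RNA per cell cannot be told apart.

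Respiratory chain mRNA took its smallest share of the unscaled counts in the 3 hepatectomy libraries of POD1. The nuclear genes together took 0.145%, 0.156% and 0.154% of the total in hepatectomy POD1 and 0.188%, 0.215% and 0.491% in sham POD1. All 3 hepatectomy values lay below the sham values, and sham replicate 3 was far above its partners. The mitochondrial genes took 0.420%, 0.663% and 0.608% in hepatectomy POD1 against 1.48%, 1.48% and 1.90% in sham POD1, again with no overlap. Over the 24 libraries the nuclear share was 0.145% to 0.286% in the 9 endothelium-poor libraries and 0.365% to 0.618% in the other 15, so it separated the same libraries as the endothelial score. With TMM scaling the nuclear sum was 3167 ± 133 CPM (SD) after hepatectomy and 2976 ± 529 in sham at POD1, with overlap. The lowest of all 24, 2540, was sham POD1 replicate 2. The scaled mitochondrial sums did not overlap there, at 9096 to 13097 and 13800 to 22290 CPM. Over all libraries the scaled nuclear sum ran from 2540 to 3310 CPM in the endothelium-poor set and from 3207 to 4549 in the others. The part of the cell mixture in the nuclear share was not tested.

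The balance between the genomes is free of library scaling, since both sums come from the same library. The log2 ratio of summed mitochondrial to summed nuclear counts was 1.53, 2.09 and 1.98 in hepatectomy POD1 and 2.98, 2.78 and 1.95 in sham POD1. Sham replicate 3 lay within the hepatectomy range and the other 2 sham libraries above it. The means were 1.87 ± 0.30 (SD, n = 3) and 2.57 ± 0.54, a difference of -0.70 that ran from -1.01 to -0.50 when each library was left out in turn. On the later days the group means lay between 1.82 and 2.23, and the ratio of all 24 libraries ran from 1.46 to 2.98. The hepatectomy POD1 mean lay within that range of later means and the sham POD1 mean above it. In the endothelium-poor set, which holds sham POD1 replicates 1 and 2, the ratio ran from 1.53 to 2.98 (median 2.42). In the other libraries it ran from 1.46 to 2.62 (median 1.97). The part of the cell mixture in the ratio was not tested. As a score over chosen genes the ratio was given no test.

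**Figure D1:**
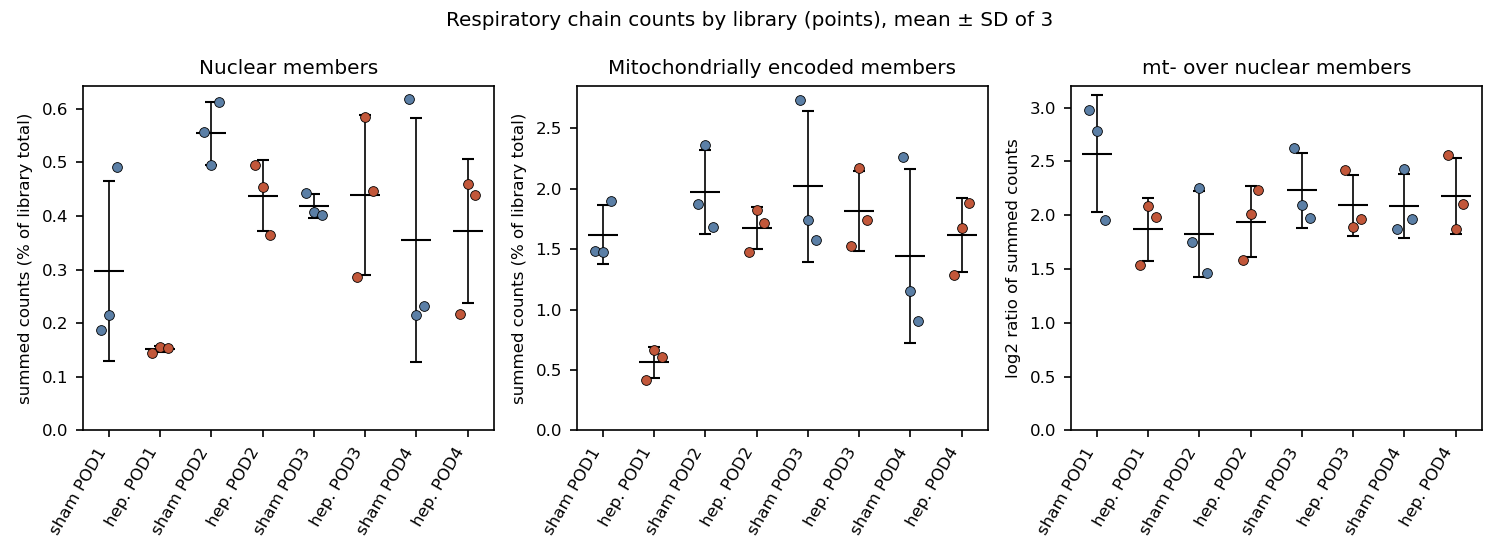
Summed counts of the nuclear (left) and mitochondrially encoded (middle) respiratory chain genes as a percentage of the library total, and the log2 ratio of the mitochondrial to the nuclear sum (right), for sham and hepatectomy (hep.) on POD1 to POD4. Points are libraries and bars the mean ± SD of 3. By share of unscaled counts the hepatectomy POD1 libraries are lowest for both genomes, at 0.145% to 0.156% nuclear and 0.420% to 0.663% mitochondrial. The ratio overlaps between the operations on every day.

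At POD1 the comparison asks what differed in these cells a day after hepatectomy. mt-Nd2, a core proton-pumping subunit of complex I, was the only mitochondrial gene to pass the test. Its level was 933, 1424 and 1446 CPM in hepatectomy POD1 and 3163, 2472 and 1805 CPM in sham POD1. The groups did not overlap, and it fell by 0.97 on the log2 scale (SE 0.35, adjusted p = 0.032, edgeR's quasi-likelihood test with Benjamini-Hochberg adjustment over 14325 genes). That is 1 of 7 mitochondrial genes, beside 28% of all genes tested that were lower and 40.9% that passed in either direction. The call was lost without any 1 of 5 of the POD1 libraries, and without sham replicate 3 the count was 2.

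The other 6 mitochondrial mRNAs had fold changes of the same sign that did not pass. mt-Co1 ranged over 2767 to 3904 CPM after hepatectomy and 4307 to 6091 CPM in sham (log2 -0.56), and mt-Nd1, the ubiquinone-proximal subunit of complex I, at 1399 to 2117 and 2533 to 3389 CPM (log2 -0.59). Neither pair of ranges overlapped. The ranges of mt-Cytb, the cytochrome b of complex III (log2 -0.54), and of mt-Nd4 (-0.78), mt-Nd5 (-0.27) and mt-Nd6 (-0.46) did. The median of the 7 was -0.56, which is 0.14 below the median of all genes tested at -0.42. With library size alone that median of all genes moved to -1.43 and that of the mitochondrial genes to -1.51, and all 7 passed as lower.

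The composition of the mitochondrial mRNA pool does not depend on scaling either. mt-Nd2 made up 10.8% ± 0.44 (SD, n = 3) of the mitochondrial counts in hepatectomy POD1 and 13.8% ± 0.64 in sham POD1, with no overlap (10.25% to 11.04% and 13.08% to 14.19%). The means of the other groups lay between 12.4% and 13.5%, but replicate 3 of sham POD4 was as low as hepatectomy POD1, at 10.3%. mt-Cytb held 24.4% ± 0.57 in hepatectomy POD1 and 23.0% ± 2.49 in sham POD1, whose replicates 1 and 2 (24.3% and 24.6%) lay within the hepatectomy range. Replicate 3 of sham POD4 stood apart from its partners, with 43.0% of the mitochondrial counts in mt-Co1. These shares are descriptions with no test.

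**Figure D2:**
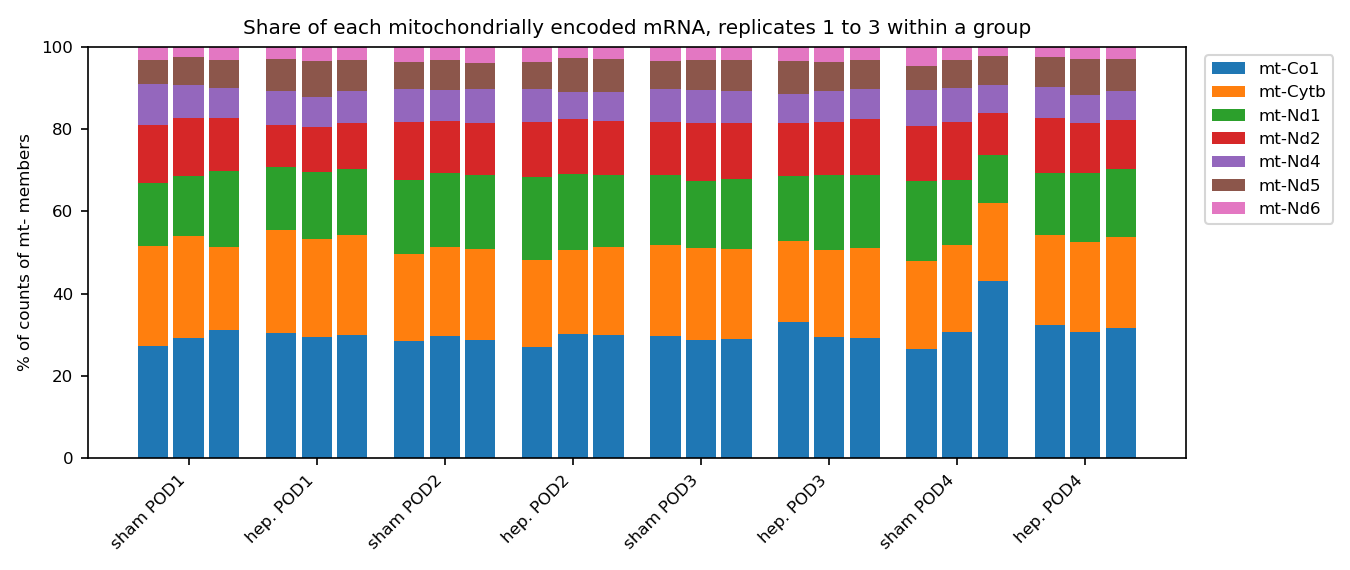
Share of each of the 7 counted mitochondrial mRNAs in the mitochondrial counts (y axis, %), 1 bar per library, grouped by operation (sham or hep., hepatectomy) and day. The stacks are alike in most libraries; the mt-Nd2 layer is 10.8% in hepatectomy POD1 against 13.8% in sham POD1, and in replicate 3 of sham POD4 mt-Nd2 is 10.3% and mt-Co1 reaches 43.0%.

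The nuclear genes did not move as a block at POD1. Of 77 tested, 10 rose and 8 fell after hepatectomy (23.4% in all), beside 13% of all genes tested that rose and 28% that fell. Their median log2 fold change was -0.02, or 0.40 above the median of all genes, and that of the mitochondrial genes was 0.14 below it. The offset from all genes was 0.34 with library size alone, where the nuclear median was -1.09, and turned to -0.11 without the low-count filter, where the median of the 27740 genes then tested was -0.03. With library size alone 0 nuclear genes passed as higher and 43 as lower, beside 4.26% and 56.3% of all genes. A fit of the POD1 libraries by themselves passed 2 as higher and 3 as lower, beside 7.57% and 12.9%. Direction is therefore given relative to TMM scaling, whose factors were 0.462 to 0.511 for hepatectomy POD1 and 0.666, 0.847 and 1.38 for sham POD1.

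**Figure D3:**
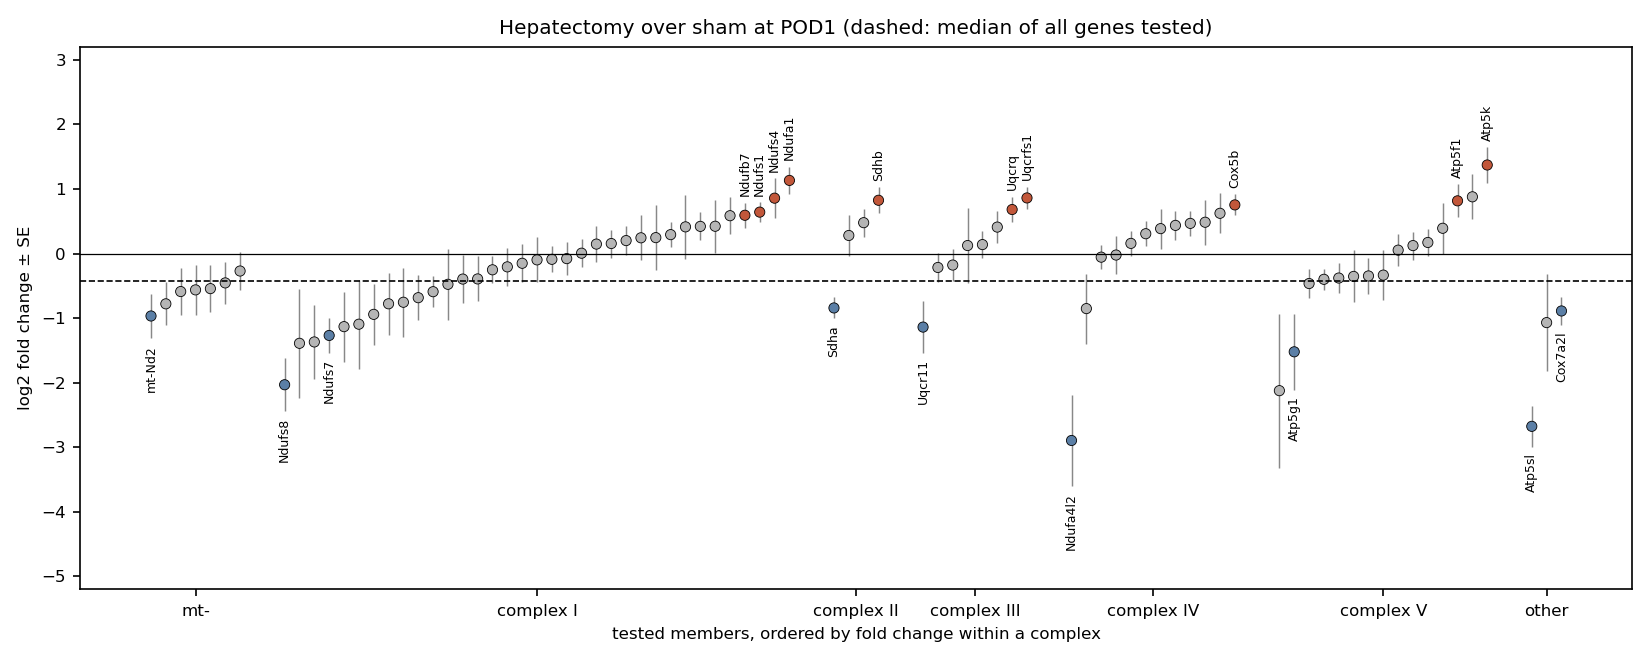
Log2 fold change of hepatectomy over sham at POD1 (y axis, ± SE, TMM scaling) for the 84 tested respiratory chain genes, grouped as mitochondrial (mt-), complexes I to V and other, and ordered by size within a group. Red genes passed as higher and blue as lower at an adjusted p of 0.05, grey did not; complexes I to V each hold genes on both sides of 0, and the dashed line is the median of all genes at -0.42. With library size alone no nuclear gene passed as higher.

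In complex I, the NADH dehydrogenase, 1 of 7 nuclear core subunits rose and 2 fell, and 3 of 28 accessory subunits rose and none fell. Ndufs1, the largest core subunit and an iron-sulfur carrier of the NADH-oxidizing arm, stood at 44.4, 55.6 and 53.7 CPM in hepatectomy POD1 and 36.3, 29.6 and 32.6 CPM in sham (log2 0.64 ± 0.16, adjusted p = 0.00455). Ndufs8, which carries iron-sulfur clusters on the arm toward ubiquinone, stood at 5.84, 5.58 and 5.55 CPM against 15.6, 18.9 and 34.9 CPM (log2 -2.03 ± 0.41, adjusted p = 0.00146). The ranges of both genes were separate and pointed opposite ways, and Ndufs8 lay lower in hepatectomy POD1 than in any of the other 21 libraries. Ndufs7, which holds the last iron-sulfur cluster of the same arm, also fell (log2 -1.27, adjusted p = 0.00191), with 12.6 to 16.1 CPM against 27.4 to 40.7 CPM. Among the accessory subunits Ndufa1, which sits in the membrane arm and is needed to assemble it, rose (log2 1.13 ± 0.21, adjusted p = 0.00085), with 38.9 to 44.4 CPM against 16.2 to 21.2 CPM. Ndufb7 (log2 0.59, adjusted p = 0.0218) and Ndufs4 (log2 0.86, adjusted p = 0.033) also rose. Leaving out 1 library ended the Ndufb7 call in 4 of 24 fits (hepatectomy POD1 replicate 1 or 3, sham POD1 replicate 2 or 3) and the Ndufs4 call in 5 (any POD1 library but sham replicate 3), and both turned negative with library size alone (-0.40 and -0.27). Ndufs1 turned to -0.35 there. The other 29 did not pass.

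Complex II, succinate dehydrogenase, has 4 subunits, and its 2 catalytic ones moved apart. Sdha, the flavoprotein that oxidizes succinate, stood at 51.1, 70.1 and 57.4 CPM in hepatectomy POD1 and 98.6, 106 and 116 CPM in sham (log2 -0.84 ± 0.16, adjusted p = 0.00101). Sdhb, the iron-sulfur subunit that takes the electrons from it, stood at 80.3, 85.3 and 86.2 CPM against 59.2, 42.4 and 40.6 CPM (log2 0.82 ± 0.20, adjusted p = 0.00508). Both were separate from sham and from all other libraries, in which Sdha lay higher and Sdhb lower. The membrane anchors did not pass, Sdhd at log2 0.48 and Sdhc at log2 0.28. The promoters of this pair are shown because the genes encode partners in 1 enzyme and moved in opposite directions with TMM scaling. With library size alone the Sdhb fold change turned negative too. They are RefSeq sequences on GRCm38.p6, Sdha at chr13:74350191-74350490 on the minus strand and Sdhb at chr4:140961021-140961320 on the plus strand. Capitals mark a match to the ETS-family motif CCGGAAG on either strand.
Sdha promoter: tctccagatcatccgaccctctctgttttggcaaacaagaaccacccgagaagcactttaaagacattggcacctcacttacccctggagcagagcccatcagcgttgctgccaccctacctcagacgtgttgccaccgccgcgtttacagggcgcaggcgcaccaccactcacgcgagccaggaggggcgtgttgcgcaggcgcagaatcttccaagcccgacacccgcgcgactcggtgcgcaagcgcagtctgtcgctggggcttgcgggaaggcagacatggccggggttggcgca
Sdhb promoter: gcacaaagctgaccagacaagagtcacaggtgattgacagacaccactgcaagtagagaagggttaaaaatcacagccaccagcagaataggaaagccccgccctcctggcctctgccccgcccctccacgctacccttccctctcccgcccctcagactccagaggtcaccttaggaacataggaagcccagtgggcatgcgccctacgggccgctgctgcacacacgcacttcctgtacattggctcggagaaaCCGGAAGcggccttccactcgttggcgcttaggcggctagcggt
The ETS motif was found in the Sdhb window and not in that of Sdha, and neither held the palindrome of NRF1, a regulator of nuclear respiratory genes, searched as GCGCA directly followed by TGCGC. Of 66 respiratory chain genes with a RefSeq promoter, 15 (22.7%) held CCGGAAG, 5 (7.58%) the NRF1 palindrome and 6 (9.09%) AAGATGGCG, a YY1 motif, against 9.12%, 0.977% and 1.495% of 27025 promoters. The SP1 motif GGGCGG was in 26 (39.4%), near its share of all promoters (35.9%). CCGGAAG was in 3 of 7 promoters of genes that rose at POD1, 2 of 6 of those that fell and 10 of 49 of those that did not pass. The matches are descriptions of sequence only.

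In complex III, the cytochrome c reductase, 2 of 8 nuclear subunits rose and 1 fell. Uqcrfs1, the Rieske iron-sulfur protein, stood at 39.5, 38.0 and 35.9 CPM in hepatectomy POD1 and 21.8, 18.0 and 22.6 CPM in sham (log2 0.86 ± 0.17, adjusted p = 0.00127). Uqcrq, a small ubiquinone-binding subunit, rose by log2 0.68 (adjusted p = 0.0127), and Uqcr11, a small accessory subunit, fell by 1.14 on the log2 scale (adjusted p = 0.0289). The Uqcrq call was lost without sham POD1 replicate 2 or 3 and the Uqcr11 call without hepatectomy POD1 replicate 2 or 3 or sham POD1 replicate 3. With library size alone Uqcrfs1 turned to log2 -0.16 and Uqcrq to -0.26. The structural core subunits Uqcrc1 (log2 -0.18) and Uqcrc2 (log2 0.41) did not pass.

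In complex IV, cytochrome c oxidase, 1 of 12 tested nuclear subunits rose and 1 fell. Cox5b, a zinc-binding subunit on the matrix side, stood at 71.8, 59.7 and 70.1 CPM in hepatectomy POD1 and 46.3, 35.6 and 37.7 CPM in sham. The groups did not overlap (log2 0.75 ± 0.16, adjusted p = 0.00215 in edgeR's test). With library size alone the Cox5b fold change turned negative. Ndufa4l2, a hypoxia-inducible relative of the complex IV subunit Ndufa4, had 1, 0 and 2 counts in hepatectomy POD1 and 7, 14 and 23 in sham. Per scaled total, sham held 8.07 times the hepatectomy level, with a 95% exact interval of 2.59 to 40.6 that covers counting error only, and the test passed (adjusted p = 0.00486). Ndufa4 itself did not pass (log2 -0.85). The body-wide isoforms Cox4i1, Cox6a1, Cox6b1, Cox7a2, Cox7b and Cox8a were counted in every library and did not pass (log2 -0.02 to 0.47). Their muscle or tissue counterparts were near 0: Cox4i2 had at most 5 counts in a library, Cox7a1 16, Cox8b 8 and Cox6b2 17.

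In complex V, the ATP synthase, 0 of 5 subunits of the catalytic F1 head passed in edgeR, with 1 at an unadjusted p under 0.05, and DESeq2 passed 1, the gamma subunit Atp5c1. Of 10 subunits in the membrane sector and stalk, 2 rose and 1 fell. Atp5b (log2 0.17) and Atp5a1 (log2 -0.35), the pair that forms the head, were among those that did not pass. Atp5k, the e subunit that joins ATP synthases into dimers, stood at 37.3, 27.9 and 38.3 CPM in hepatectomy POD1 and 12.02, 11.7 and 16.2 CPM in sham, with no overlap (log2 1.37 ± 0.28, adjusted p = 0.00148). Atp5f1, the b subunit of the stalk, rose by log2 0.82 (adjusted p = 0.017), though 38.71% of its windows are shared with other genes. Its call was lost without hepatectomy POD1 replicate 3 or sham POD1 replicate 3, and its fold change turned negative with library size alone. Of the 3 genes for the proton-carrying c subunit, which encode the same mature protein, Atp5g1 fell by 1.52 on the log2 scale (adjusted p = 0.045) at 0.419 to 1.31 CPM against 1.75 to 4.71 CPM, and the call was lost in 16 of 24 fits that left out a library. The abundant form Atp5g3 (log2 0.39) and the rare form Atp5g2 (counts of 1, 0 and 1 against 2, 1 and 17) did not pass.

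Of 3 genes that the symbols include without being structural subunits, 2 fell. Atp5sl, an assembly factor of the complex I membrane arm, stood at 2.08, 2.37 and 1.75 CPM in hepatectomy POD1 and 11.2, 8.86 and 19.7 CPM in sham (log2 -2.68 ± 0.32, adjusted p = 1.37e-05). Every one of the other 21 libraries lay above the hepatectomy POD1 values. Cox7a2l, which joins complexes III and IV into supercomplexes, fell too (log2 -0.89, adjusted p = 0.00427), with 18.0 to 19.0 CPM against 24.2 to 40.7 CPM. Atp5s (log2 -1.07) did not pass.

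Ratios of 2 genes within a library need no scaling, and were taken for 14 pairs picked after their values were seen and so without a test. In 10 pairs hepatectomy POD1 lay apart from the other 21 libraries. In Sdhc over Sdha, mt-Nd5 over mt-Nd2, mt-Nd6 over mt-Nd5 and mt-Co1 over mt-Nd2 it overlapped them. The share over all gene pairs was not taken, so the count of 10 cannot be read as particular to respiratory chain genes. The log2 ratio of Sdhb to Sdha was 0.65, 0.28 and 0.59 in hepatectomy POD1 and below 0 in the other 21 libraries, the highest being -0.41 in replicate 3 of sham POD4. In the 6 other endothelium-poor libraries it lay between -1.32 and -0.41. Ndufs1 over Ndufs8 was 2.93 to 3.31 in hepatectomy POD1 and at most 1.44 elsewhere. Cox7a2, the complex IV subunit related to Cox7a2l, stood over Cox7a2l at log2 1.20 to 1.33 against at most 0.55 elsewhere, and Atp5k over Atp5a1 at -2.37 to -1.86 against at most -3.35. In the 6 other endothelium-poor libraries Ndufs1 over Ndufs8 lay between 0.65 and 1.44, below the hepatectomy POD1 values. Those 6 lay above all 15 endothelium-rich libraries, which ran from -0.46 to 0.59, so this ratio also separated the libraries by endothelial score. The part of the cell mixture in these ratios was not tested.

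**Figure D4:**
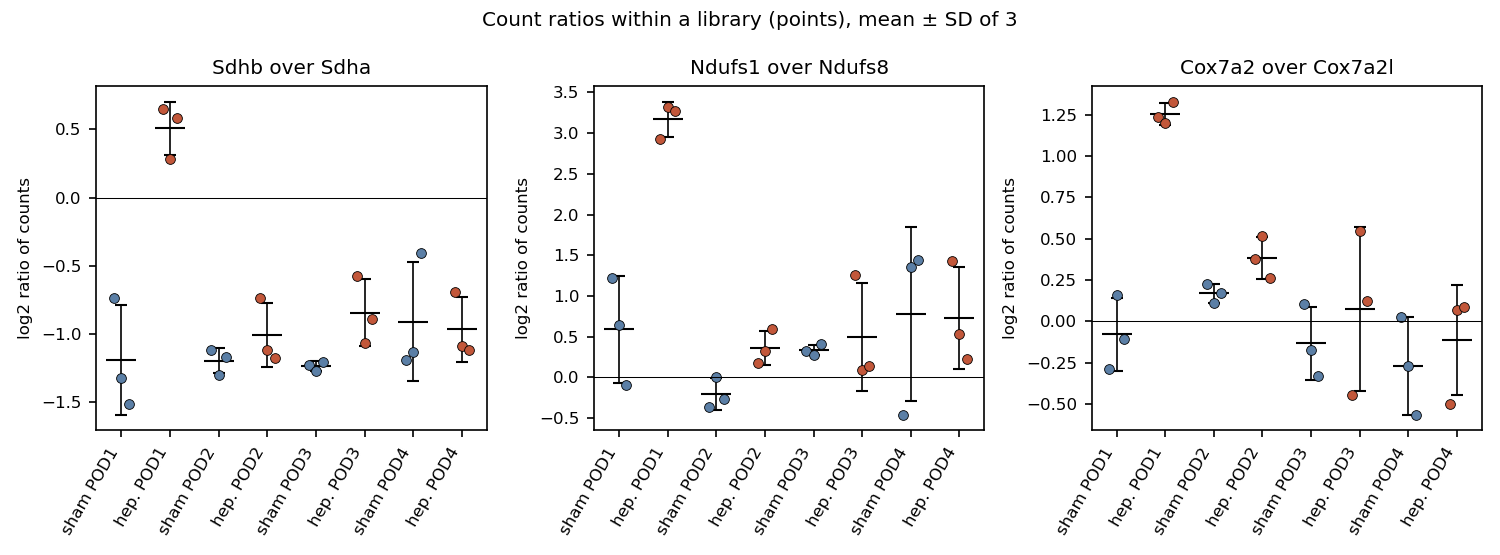
Log2 ratio of counts within a library (y axis) for Sdhb over Sdha, Ndufs1 over Ndufs8 and Cox7a2 over Cox7a2l, for sham and hepatectomy (hep.) on POD1 to POD4. Points are libraries and bars the mean ± SD of 3; in each panel the 3 hepatectomy POD1 libraries (0.28 to 0.65, 2.93 to 3.31 and 1.20 to 1.33) lie above all other 21.

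From POD2 on, no respiratory chain gene of either genome passed edgeR's test in the fit of all 8 groups, though other fits passed a few. At POD2 edgeR's quasi-likelihood test passed 0 of 77 nuclear and 0 of 7 mitochondrial genes beside 0.0977% of all genes (0.0349% higher and 0.0628% lower), and 2 nuclear genes had an unadjusted p under 0.05. At POD3 it was 0 beside 0.0209% of all genes, with 4 at an unadjusted p under 0.05, and at POD4 0 beside 0%, with 4. DESeq2 passed 0, 1 and 0 nuclear genes and no mitochondrial gene on the same days, beside 1.47%, 2.06% and 0.237% of all genes. A fit of the POD2 libraries by themselves passed 3 nuclear genes beside 28.9% of all genes, so the count over all genes at POD2 differed greatly between the fits. With the endothelial score as a covariate 1 nuclear gene passed at POD2 and 6 at POD3, beside 7.32% and 9.28%. The lowest p values belonged to Ndufa4l2 (log2 -1.59, adjusted p = 0.378) and Ndufa8 (log2 0.54, adjusted p = 0.52) at POD2, Uqcrfs1 (log2 0.49, adjusted p = 0.324) and Cox5a, a nuclear subunit of complex IV (log2 0.45, adjusted p = 0.514), at POD3, and Ndufb7 (log2 -0.52, adjusted p = 0.82) and Ndufa13 (log2 -0.50, adjusted p = 0.856) at POD4, all in edgeR's test. A miss of the threshold does not show that the operations were alike, and hepatectomy POD3 and both POD4 groups each held endothelium-poor libraries beside others.

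Between POD1 and POD2 after hepatectomy, 26 of 77 nuclear genes (33.8%) rose, near the 34.5% of all genes that rose. A further 9 fell, beside 21.9% of all genes (56.4% in all passed), and 0 of 7 mitochondrial genes passed, with none at an unadjusted p under 0.05 in edgeR and 0 in DESeq2. This contrast shares the hepatectomy POD1 libraries with the comparison at POD1. Ndufs8 went from 5.55 to 5.84 CPM at POD1 to 35.6, 29.9 and 25.8 CPM at POD2 (log2 2.43 ± 0.42, adjusted p = 0.000318), with no overlap. Atp5sl reached 10.8, 10.5 and 11.9 CPM (log2 2.41 ± 0.32, adjusted p = 3.6e-05), and Ndufa8, a twin-cysteine accessory subunit of complex I, went from 27.2 to 35.3 CPM to 104, 88.5 and 70.5 CPM (log2 1.52 ± 0.24, adjusted p = 0.000196). Sdha rose by log2 0.82 (adjusted p = 0.000857) and Cox5b fell by 0.75 on the log2 scale (adjusted p = 0.00146). By complex, 13 of 35 complex I genes rose and 3 fell, 1 and 1 of 4 in complex II, 1 and 1 of 8 in complex III, 2 and 2 of 12 in complex IV, and 7 and 2 of 15 in complex V. With library size alone 67 nuclear genes passed as higher, 0 as lower and 7 mitochondrial genes as higher, beside 61.9% of all genes higher and 5.3% lower. Over the same interval the summed endothelial markers went from 821 to 835 to 23019 to 28467 unscaled CPM and 13 of 15 rose, and with the endothelial score as a covariate 5 nuclear genes passed as higher and 15 as lower, beside 20.6% and 15% of all genes.

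In sham the same interval passed 0 of 77 nuclear and 0 of 7 mitochondrial genes, beside 0% of all genes, with 30 nuclear genes at an unadjusted p under 0.05 in edgeR, beside 26.2% of all genes, and 4 passing in DESeq2, beside 15.6%. Cox6c, a complex IV subunit, had log2 0.95 (adjusted p = 0.0923) and Ndufb6, a membrane-arm subunit of complex I, log2 0.85 (adjusted p = 0.0936). Without replicate 3 of sham POD1, the endothelium-rich library of that group, 48 nuclear genes passed, beside 50.3% of all genes.

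The effect of hepatectomy differed between POD4 and POD1 for 16 nuclear genes, 4 higher at POD4 and 12 lower, and for 0 of 7 mitochondrial genes (none at an unadjusted p under 0.05 in edgeR and 0 passing in DESeq2), beside 19.4% and 9.03% of all genes (28.5% in all). The 4 were Atp5sl, Ndufs8, Ndufa4l2 and Sdha, which had fallen at POD1. The interaction of operation with all 4 days passed 5 nuclear genes, Atp5sl, Ndufa1, Ndufa4l2, Cox5b and Atp5k, beside 8.68% of all genes. These 2 tests use the POD1 libraries again, so they are not independent of the comparison at POD1. These counts depended on single libraries. Without replicate 1 of sham POD4, the endothelium-rich library of its group, they were 17 higher at POD4 and 14 by interaction, beside 33.2% and 32.4% of all genes. Without replicate 3 of sham POD1 1 gene was higher, beside 7.09%. Without replicate 1 of hepatectomy POD1 or replicate 2 of sham POD3 2 passed by interaction, and the share of all genes there is not given here. A replicate block within day passed 1 higher and 1 lower, beside 2.76% and 1.52%, and 0 by interaction, beside 0.391%.

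**Figure D5:**
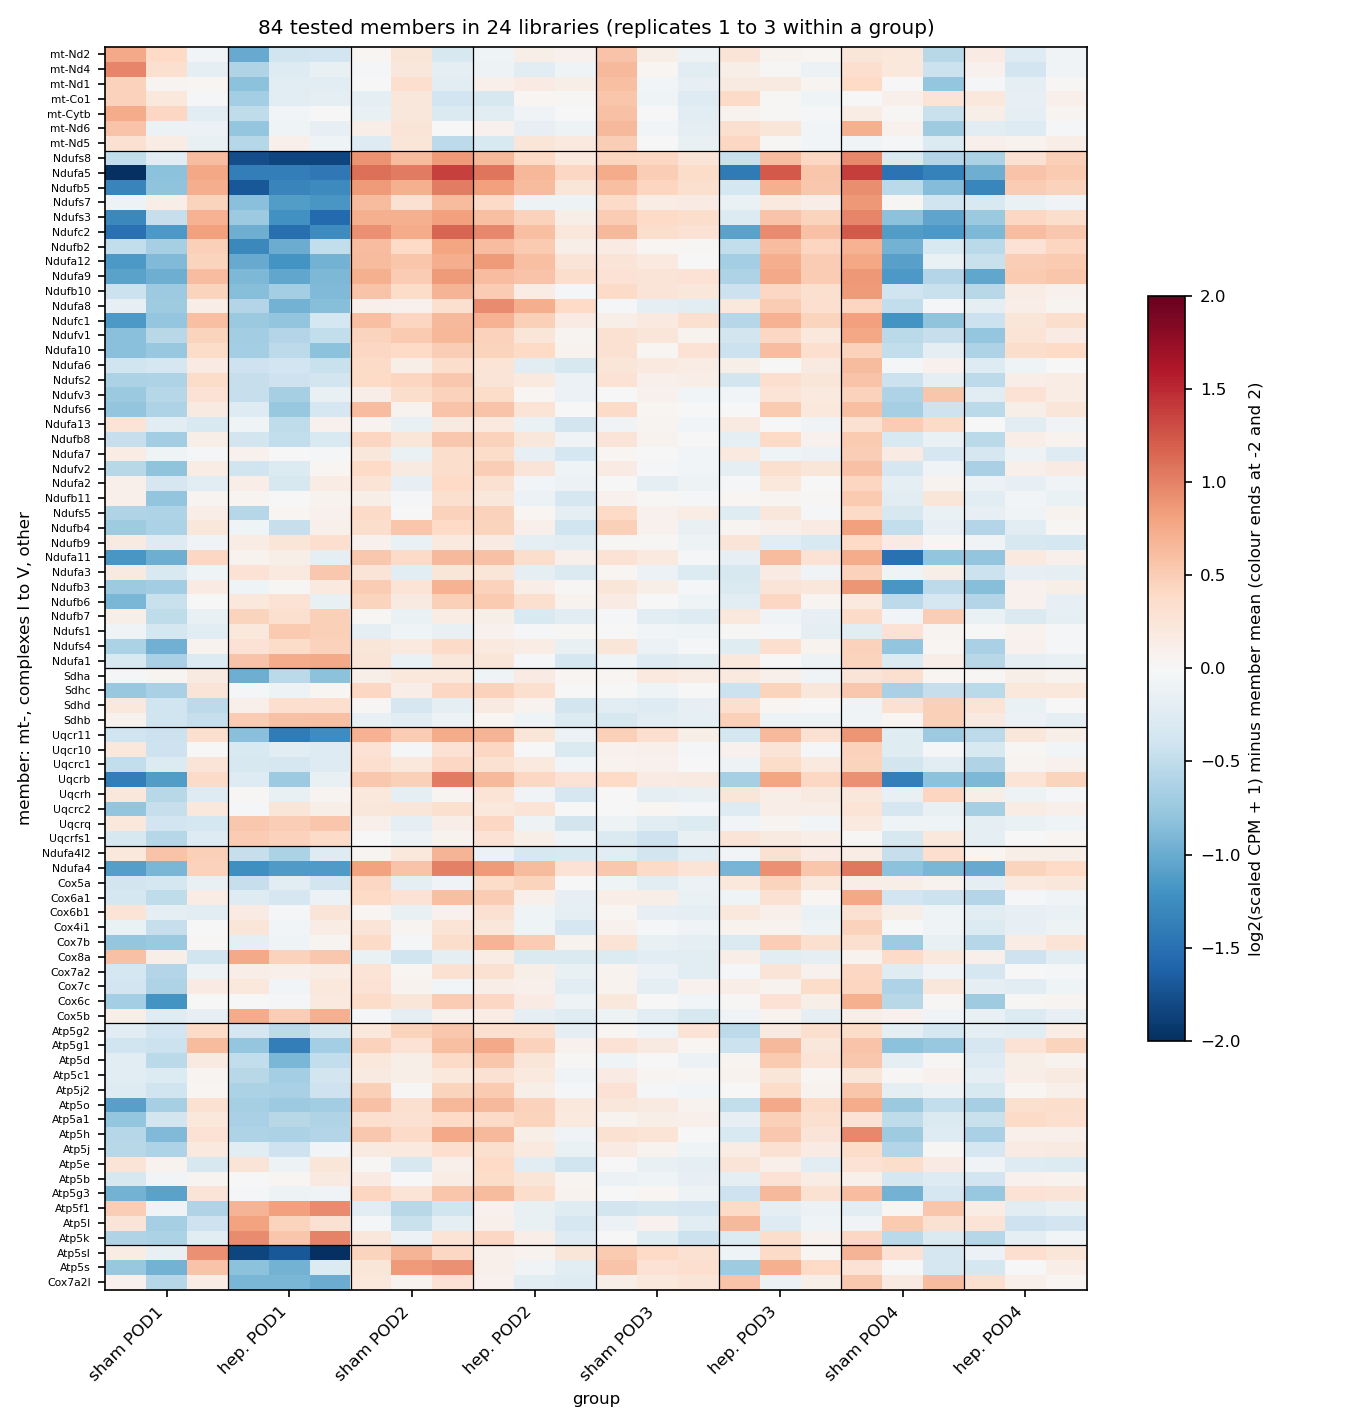
Level of the 84 tested respiratory chain genes (rows, mitochondrial first, then complexes I to V and other) in the 24 libraries (columns, replicates 1 to 3 within each group), as log2(scaled CPM + 1) minus the mean of the gene; red is above and blue below it and colours end at -2 and 2. The hepatectomy POD1 columns hold both the bluest rows (Ndufs8, Atp5sl) and red rows (Ndufa1, Sdhb, Atp5k), and the endothelium-poor libraries of sham POD1, sham POD4, hepatectomy POD3 and hepatectomy POD4 share blue rows such as Ndufa5 and Uqcrb.

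Genes that build, feed or regulate the chain were counted at POD1 from lists of pathway genes, against the same 13% of all genes higher and 28% lower. Of 43 tested assembly factors 1 rose and 13 fell. Ndufaf7, a methyltransferase for complex I assembly, rose from 6.85 ± 1.70 to 24.8 ± 5.79 CPM (log2 1.86, adjusted p = 8.98e-05), while Surf1, a complex IV assembly factor, fell (log2 -0.82, adjusted p = 0.00405), at 12.9 ± 1.02 CPM against 22.7 ± 4.59 CPM in sham. Of 75 mitochondrial ribosomal proteins 4 rose and 25 fell, with Mrpl45 rising from 9.28 ± 3.76 to 113 ± 17.9 CPM (log2 3.60, adjusted p = 8.46e-06) and Mrps15 falling (log2 -2.34, adjusted p = 1e-05), at 4.94 ± 0.28 CPM against 25.0 ± 2.28 CPM in sham. Of 26 genes for expression of mitochondrial DNA 1 rose and 6 fell, among them Polrmt, the mitochondrial RNA polymerase, at 1.11 ± 0.37 CPM against 8.98 ± 8.36 CPM in sham (log2 -3.02, adjusted p = 0.00311).

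Of 18 genes for other routes of electrons into the chain 2 rose and 6 fell: Etfdh, which passes electrons from fatty acid oxidation to ubiquinone, rose from 17.0 ± 3.65 to 37.5 ± 5.78 CPM (log2 1.14, adjusted p = 0.000365), and Gpd2, the glycerol phosphate dehydrogenase, from 81.2 ± 41.9 to 284 ± 12.6 CPM (log2 1.81, adjusted p = 0.0126). Of 18 citric acid cycle genes 3 rose and 4 fell, with Dld, the shared lipoamide dehydrogenase, at log2 1.59 (adjusted p = 1.07e-05) and Idh2, the mitochondrial NADP-linked isocitrate dehydrogenase, at log2 -3.58 (adjusted p = 0.000472). Of 9 regulators of mitochondrial biogenesis Esrra, a nuclear receptor for respiratory genes, rose from 32.7 ± 6.80 to 92.6 ± 7.46 CPM (adjusted p = 4.28e-05). Its coactivator Ppargc1b fell (log2 -2.62, adjusted p = 0.00643 in edgeR's test). That gene was near the floor, at 0.225 ± 0.142 CPM against a variable 1.40 ± 1.29 CPM in sham. Of 14 genes of the hypoxic switch 3 rose and 6 fell, including Pdk2, a brake on pyruvate oxidation (log2 -3.03, adjusted p = 0.000599), and Epas1, a hypoxia-inducible transcription factor abundant in endothelium that ran from 49.8 to 749 CPM in sham POD1 (log2 -3.88, adjusted p = 0.00897). Markers of other cells moved in the same comparison: 13 of 15 endothelial, 5 of 5 B cell and 7 of 10 stellate and mural markers fell. Of 11 macrophage and Kupffer cell markers 7 fell and 1 rose, and of 6 monocyte markers 3 fell and 1 rose. In other lists 2 of 12 tested neutrophil and 1 of 2 T and NK cell markers rose, and 1 of 5 skeletal muscle markers fell. Of 10 hepatocyte and 5 erythroid markers 0 passed. The summed unscaled CPM of the B cell markers ran from 0.240 to 0.428 after hepatectomy against 12.04 to 25.8 in sham. Ms4a1 was at 0 after hepatectomy. The sum ran from 340.2 to 438 against 1291 to 1622 for macrophages and from 159.7 to 223 against 352 to 692 for stellate and mural cells. For monocytes it ran from 74.5 to 89.4 against 131 to 836. The part of these cells in the counts was not tested.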

How the data were processed

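The deposited table holds raw read counts per gene symbol for 24 libraries. Per the submitters' processing notes the tools named were cutadapt, STAR 2.4.2a and HTSeq with GRCm38; roles, annotation release, strand setting and filters are not given in the sources used here. Counts were tested with edgeR 4.0.16 (R 4.3.3), by its quasi-likelihood F test, fitting all 8 groups together (16 residual degrees of freedom), TMM scaling and filterByExpr, which left 14325 genes. P-values are two-sided and Benjamini-Hochberg adjusted over all of them at 0.05. An approximate SE was taken as log2 fold change over root F. The fit was run on simulated data in which a small set of genes moved up or down equally often, with the same mean in all groups otherwise. That setting does not cover a shift of many genes mainly downward, as at POD1, so it cannot judge direction there. DESeq2 1.42.0 and other scalings, filters, covariates and left-out libraries were alternatives. The text names all mitochondrial genes, per complex up to 3 nuclear genes per direction with the lowest p at POD1, up to 5 in other comparisons (2 where none passed), isoforms, and up to 3 per pathway list; Atp5sl, Cox7a2l and further genes were added after their values were seen. Members, lists and tests were chosen with earlier results of these data known. Intervals cover counting error only.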

Additional observations from a re-analysis of the deposited data

Results flagged for a closer look

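The effect of hepatectomy at POD4 differed from that at POD1 in 16 of 77 nuclear genes (20.8%), beside 28.5% of all genes tested. The test was of the difference itself (edgeR's quasi-likelihood test, adjusted p under 0.05). The difference is given as the log2 effect at POD4 minus that at POD1. It was positive for Ndufa4l2 (3.01), Atp5sl (2.57), Ndufs8 (1.95) and Sdha (0.70). It was negative in complex I for Ndufa1 (-1.57), Ndufb7 (-1.11), Ndufa3 (-0.87), Ndufb9 (-0.75) and Ndufs1 (-0.68). In complexes II to IV it was negative for Sdhb (-1.03), Cox5b (-0.99), Uqcrfs1 (-0.90) and Uqcrq (-0.83), and in complex V for Atp5k (-1.56), Atp5l (-1.37) and Atp5f1 (-1.04). Ndufa3, Ndufb9 and Atp5l had not passed at POD1 itself. Leaving out 1 library moved the number higher between 1 and 17 and the number lower between 5 and 14. The share of all genes in each such fit is not given here, so these moves cannot be read as particular to the respiratory chain. For the number higher, the libraries that moved it over 1.5 times were hepatectomy POD1 replicate 1, hepatectomy POD4 replicates 2 and 3, sham POD1 replicate 3 and sham POD4 replicates 1 and 3. For the number lower they were hepatectomy POD1 replicates 1 to 3, hepatectomy POD4 replicates 2 and 3, sham POD1 replicate 2 and sham POD4 replicate 3.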

How the results depend on the processing

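Counts of nuclear and mitochondrial (mt) genes passing depended on scaling and on which libraries entered. With library size alone, POD1 had 0 nuclear genes higher, 43 lower (56.3% of all genes were lower) and 7 mt genes. POD2 against POD1 after hepatectomy then had 67 higher (61.9% of all genes), 0 lower and 7 mt. The effect at POD4 minus POD1 had 14 higher, 0 lower and 6 mt, beside 6492 higher and 292 lower of 14325 genes. In that setting the interaction had 2 mt genes, beside 2533 of all genes. POD1 log2 fold changes that reversed there were Uqcrfs1 -0.16, Cox5b -0.23, Ndufs1 -0.35, Sdhb -0.12, Uqcrq -0.26, Atp5f1 -0.056, Ndufb7 -0.40 and Ndufs4 -0.27. DESeq2 passed 17 nuclear genes as higher and 2 mt at POD1, beside 2413 of 14325 genes higher and 4163 lower. It passed 1 at POD3, 4 in sham and 16 by interaction, beside 295, 2236 and 3355 of all genes. Median-of-ratios factors passed 0 mt genes at POD1, beside 5719 of all genes. Without a low-count filter the counts were 5 higher and 0 mt at POD1, beside 1361 higher and 3557 lower of 27740 genes. They were 1 lower from POD1 to POD2, 2 lower for POD4 minus POD1 and 1 by interaction, beside 2349, 580 and 673. With at least 5 CPM in 3 libraries 9 passed by interaction, beside 1219 of 10949 genes. Fits of the compared libraries only passed 2 higher, 3 lower and 0 mt at POD1 and 3 at POD2, beside 7.57%, 12.9% and, at POD2, 28.9% of all genes. With the endothelial score as covariate the counts were 38 higher and 3 mt at POD1 (18.9% of all genes were higher). They were 1 at POD2 (7.32%), 6 at POD3 (9.28%) and 34 by interaction (4840 of 14325 genes). From POD1 to POD2 after hepatectomy 5 were higher and 15 lower, beside 2956 and 2148 of all genes. For POD4 minus POD1 the counts were 2 higher, 37 lower and 1 mt, beside 2475 higher and 1940 lower of all genes. Without the 4 endothelium-poor libraries of POD3 and POD4, chosen after seeing the data, the counts were 16 lower and 2 mt at POD1. Of all 15035 genes then tested, 5364 were lower there and 8151 passed in either direction. In sham 32 nuclear genes passed from POD1 to POD2, beside 3850 of all genes. That fit left only replicate 1 in sham POD4, so its counts for POD4 minus POD1 and by interaction are not given.

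Same-numbered hepatectomy and sham libraries of a day correlated in their deviations from -0.86 to 0.19 over 12 pairs. Different-numbered ones ran from -0.65 to 0.84 over 24 pairs. These values show no pairing by replicate number, and they cannot exclude one. A replicate block within day passed 5 nuclear genes as higher and 0 mt at POD1, beside 1003 higher and 1523 lower of 14325 genes. It passed 1 higher and 1 lower for POD4 minus POD1 and 0 by interaction, beside 395, 218 and 56 of all genes.

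Leaving out each library in turn gave 7 to 12 nuclear genes higher, 6 to 12 lower and 0 to 2 mt at POD1; 17 to 30 higher and 4 to 10 lower from POD1 to POD2 after hepatectomy, lowest without hepatectomy POD2 replicate 1 for higher and replicates 2 or 3 for lower, with 5 lower without hepatectomy POD1 replicate 1 or 3; 0 to 48 in sham, with 48 without sham POD1 replicate 3 and 2 without sham POD4 replicate 1; 1 to 17 higher and 5 to 14 lower for POD4 minus POD1; and 2 to 14 by interaction, moved over 1.5 times by 15 of 24 libraries (hepatectomy POD1 replicates 1 to 3, POD2 2 and 3, POD3 1, POD4 2 and 3; sham POD1 3, POD2 1 and 3, POD3 1 to 3, POD4 1). The shares of all genes passing in each of these fits are not given here, so the ranges cannot be read as particular to respiratory chain genes. Depth limited Ndufa4l2, Atp5g1 and Atp5g2, which had few counts.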

Other observations

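The mitochondrial ribosomal RNAs are outside the respiratory chain genes and lack the long poly-A tails that poly-A selection favours, and their share of the counts is given as values only. mt-Rnr1, the small ribosomal RNA, took 0.291% of the total in replicate 3 of sham POD4 and 0.234% in replicate 1 of hepatectomy POD3, against 0.0357% in replicate 2 of hepatectomy POD1. mt-Rnr2, the large one, took 0.306% in replicate 1 of hepatectomy POD3, 0.302% in replicate 1 of hepatectomy POD4 and 0.0795% in replicate 2 of hepatectomy POD1.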
